A study of Homo sapiens with 15 samples.

Results

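The genes TJP1, TJP3, OCLN, CRB3, PATJ, PARD3, PARD6B, DLG1 and SCRIB, which encode proteins of tight junctions and of apical-basal polarity, were chosen by name. They were 9 of the 19429 protein-coding genes that had at least 1 called peak within the gene or 10 kb on either side, a stretch called the window of a gene below. Peaks from any libraries were merged into 1 region where they overlapped by at least 1 bp. The windows of the 9 genes held 437 merged regions, numbered along each window from its lowest coordinate, of the 367949 regions on chromosomes 1 to 22, X and Y. Of these 437, 349 held a peak of at least 2 libraries and were counted as consensus regions, of 295008 consensus regions in all.

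Accessible chromatin was measured by ATAC-seq, which maps the places where Tn5 transposase can cut and tag DNA. The cells were RPTEC, a human renal proximal tubule epithelial line immortalised with hTERT and kept under G418. WT was the line with intact SETD2, the methyltransferase that deposits H3K36me3. KO1 and KO2 were clones of the same line whose SETD2 alleles had been disrupted by CRISPR/Cas9 with a guide in exon 3. Rescue1 and Rescue2 were single colonies of knockout cells that carried a lentiviral, FLAG-tagged full-length SETD2 under blasticidin selection, so they kept the disrupted alleles, and all groups carried hTERT. The 15 libraries comprised 3 of each group, and below KO stands for the 6 libraries of KO1 and KO2, and rescue for the 6 libraries of Rescue1 and Rescue2. Each group other than WT was 1 clone, and the names of the deposited lists tied both rescue clones to KO2. No label placed the 3 libraries of a group in separate cultures, so the p-values measure only the spread between libraries, which may be technical. In these bulk libraries a shift in the mix of cells and a shift in accessibility per cell cannot be told apart. The study asked how chromatin accessibility changed with SETD2 loss and whether it returned once SETD2 was expressed again.

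Tight junctions seal the space between epithelial cells near their apical face. Occludin (OCLN) is a membrane protein of the junction, and ZO-1 (TJP1) and ZO-3 (TJP3) are scaffolds that tie membrane proteins of the junction to actin. CRB3 is the Crumbs protein of the apical membrane and PATJ a scaffold of the same complex, while PARD3 and PARD6B belong to the Par complex that works with atypical protein kinase C. DLG1 and SCRIB are scaffolds of the Scribble module on the basolateral side. Proximal tubule cells rely on this machinery to keep their brush border on 1 side, and it is taken apart when epithelial cells turn mesenchymal.

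The lists held 196969 to 212373 peaks in WT, 204028 to 254650 in KO and 208067 to 265193 in rescue libraries, and contained no read counts, so the depth behind each value is unknown. A peak had been called over the canonical start of 10 to 11 of 15 kidney epithelial and proximal tubule markers in each library, while LRP2, CUBN, AQP1 and SLC34A1 had none in any library. The marker that varied was EPCAM, an epithelial adhesion molecule, with a peak over its start in 3 of 3 WT, 1 of 3 KO1, 2 of 3 KO2 and 6 of 6 rescue libraries, and its part in the results was not tested. Of 11 markers of blood, endothelium, podocytes and other tubule segments, 10 had no peak over their start in any library. The exception was CDH5, with a peak in 5 rescue libraries, and the part of this in any result was not tested. At SETD2 itself (chromosome 3, 47016428 to 47164113), 3880 to 4480 bases lay under peaks in WT, 4213 to 5375 in KO and 4593 to 6146 in rescue libraries, and a peak list cannot show the disrupted alleles.

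Most regions at the junction and polarity genes lay away from promoters. Of the 349 consensus regions, 269 lay in introns of the canonical transcript, 40 in the flanks, 27 in a gene body outside the canonical transcript, 5 in exons and 8 over a canonical start. A peak of all 15 libraries was found in 122 of them (35.0%), against 35.6% of all consensus regions. The starts of 8 genes were occupied in all 15 libraries. TJP3 was the exception, since a peak touched its canonical start in WT replicate 1 alone. Arm means at these start regions often lay close together. At PATJ (chr1:61742105-61743371) mean bases were 1172 in WT, 1175 in KO and 1195 in rescue libraries. At TJP1 (chr15:29821429-29823106) the means were 1587, 1595 and 1546 bases, and at DLG1 (chr3:197297484-197299460) they were 1783, 1771 and 1657 bases. PARD6B (chr20:50730924-50731964) had means of 819, 861 and 876 bases, OCLN (chr5:69492300-69494037) 1419, 1326 and 1328, and PARD3 (chr10:34814409-34816016) 1345, 1196 and 1086.

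Between KO and WT, bases under peaks fell at TJP3 and OCLN and passed the test at no other of the 9 loci. TJP3 (ENSG00000105289.15, chromosome 19, 3708362 to 3750813, plus strand) had 2985, 2365 and 2492 bases in the WT libraries, and the KO libraries ranged from 1674 to 2125 with a median of 1970. OCLN (ENSG00000197822.12, chromosome 5, 69492292 to 69558104, plus strand) had 4777, 4297 and 4070 bases in the WT libraries, and from 3547 to 4035 in KO libraries with a median of 3814. At both loci every KO library lay below every WT library. The mean difference was −668 ± 200 bases (SE) at TJP3 and −572 ± 225 at OCLN, each with an exact two-sided permutation p = 0.0238, the smallest that 3 and 6 libraries allow. After Benjamini-Hochberg adjustment over 19429 genes the permutation p was 0.0998 at both. At OCLN the difference was −374 bases without WT replicate 1, and 19.5 bases once regions with a near-identical copy elsewhere in the reference were left out. By limma, 1 of the 9 loci (TJP3, adjusted p = 0.0129) had fewer bases, as did 10.1% of all genes. The count of 2 loci with fewer and 0 with more bases stood against 15.3% of all genes with fewer and 15.9% with more bases at the same threshold. The total length of the lists also differed, with 51.7 ± 3.91 Mb under peaks in WT (SD, n = 3) and 55.9 ± 3.13 Mb in KO libraries (SD, n = 6, exact permutation p = 0.119). With bases scaled to that total, the median log2 ratio over all genes shifted by −0.106, 12.3% of all genes had more and 36.4% fewer bases, and 6 of the 9 loci had fewer. The 4 that passed only then were DLG1 (−1337 scaled bases, exact permutation p = 0.0238), PATJ (−751, 0.0238), CRB3 (−300, 0.0238) and PARD3 (−2206, 0.0476).

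The other loci did not pass the test between KO and WT with bases as deposited. DLG1 (ENSG00000075711.21, chromosome 3, 197042560 to 197299330, minus strand) had 7589, 6825 and 5827 bases in WT libraries and from 5499 to 6519 in KO libraries, a difference of −811 ± 530 bases (SE, exact permutation p = 0.119), or −390 without WT replicate 1. TJP1 (ENSG00000104067.17, chromosome 15, 29699367 to 29968915, minus strand) had 12020, 10376 and 10561 bases in WT libraries and from 11380 to 12696 in KO libraries, a difference of 1028 ± 555 bases (exact permutation p = 0.0952), or 1546 without WT replicate 1. For TJP1, scaling to the total under peaks left a difference of 152 bases. The differences were −175 bases at SCRIB, −166 at CRB3, −166 at PATJ, −411 at PARD3 and 34.8 at PARD6B, with exact permutation p-values from 0.167 to 0.833. The SD within groups ran from 141 bases at CRB3 to 2665 at PARD3.

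**Figure D1:**
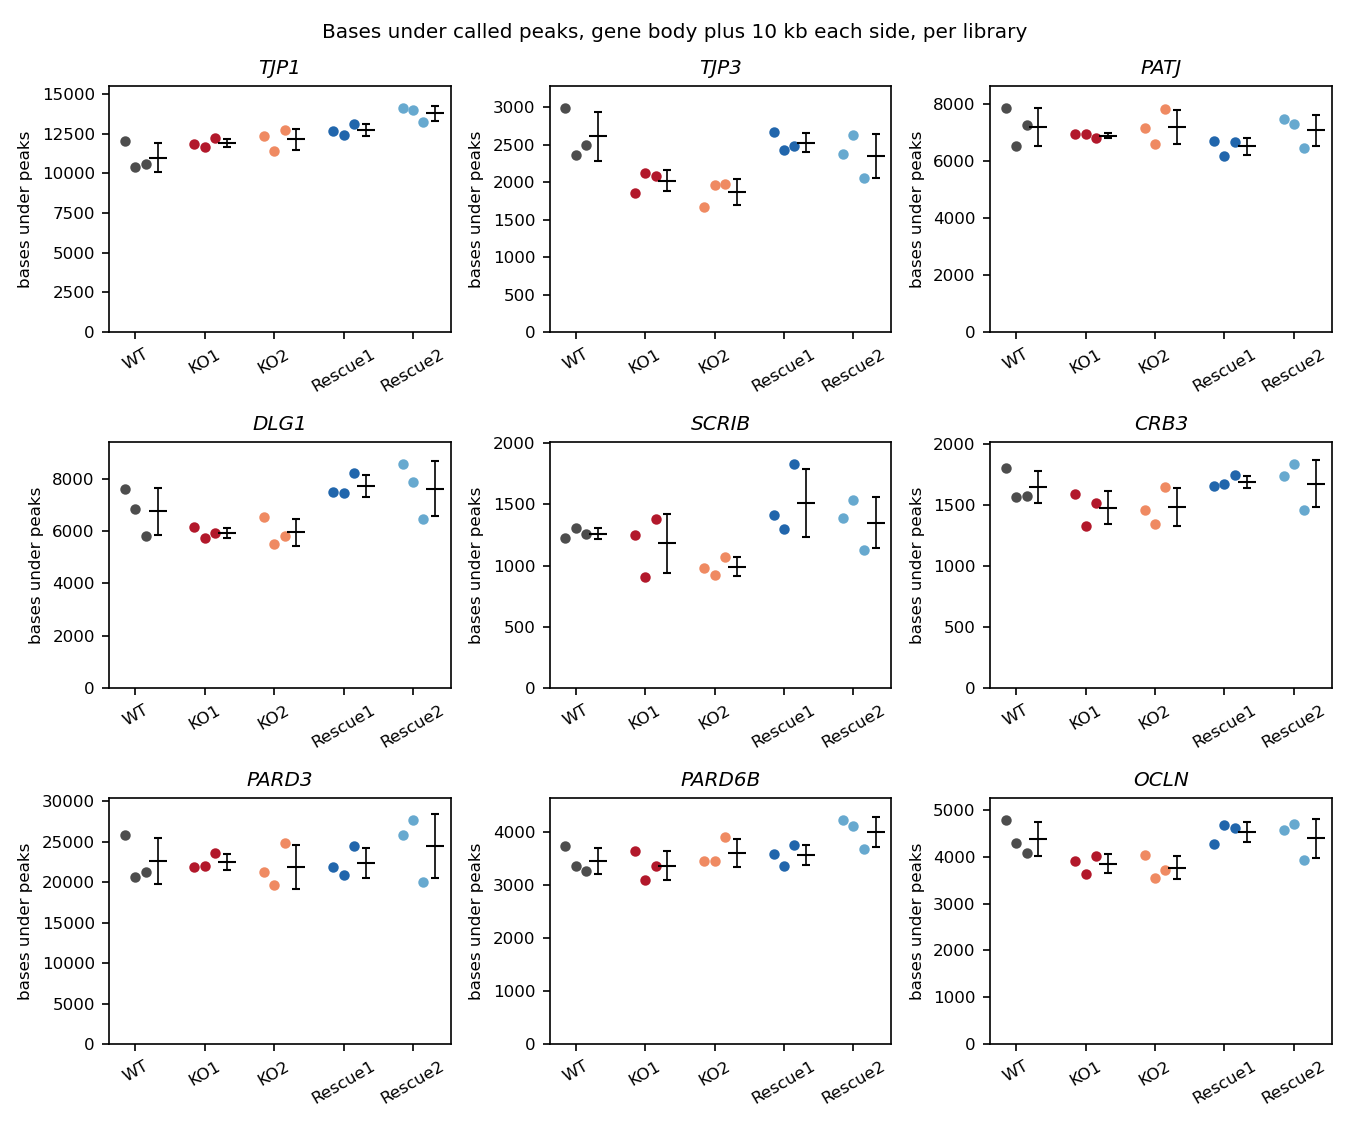
Bases under called peaks in the gene body plus 10 kb on each side (y axis) for the 9 loci, by group (x axis). Points are libraries, black bars the mean ± SD of the 3 libraries of a group. All 6 KO libraries of TJP3 and of OCLN lie below the 3 WT libraries, and all 6 rescue libraries of TJP1 lie above its WT libraries.

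Between rescue and KO, 6 of the 9 loci rose and none fell, in a comparison in which 31.4% of all genes had more and 7.32% fewer bases at the same threshold. At DLG1, rescue libraries ranged from 6460 to 8544 bases with a median of 7673, and 5 of 6 lay above every KO library. Its difference was 1736 ± 330 bases (SE, exact permutation p = 0.00433, adjusted over all genes 0.0257), an excess of 29.2%. It was smaller over stronger peaks, with 977 bases over peaks with a −log10 q of at least 5 and 615 with the 150000 strongest peaks of each library. TJP1 ranged from 12400 to 14083 bases in rescue libraries with a median of 13184, a difference of 1234 ± 336 bases (exact permutation p = 0.00649, adjusted 0.0329). For TJP1 the call was lost against KO2 alone, the clone to which the list names tie both rescue clones (1118 bases, exact permutation p = 0.0714), and with Rescue1 alone (719 bases, exact permutation p = 0.0714). Scaled to the total under peaks it was also 719 bases (exact permutation p = 0.0325). OCLN and TJP3 rose by 650 and 495 bases, and the exact permutation p was 0.00649 at both, adjusted 0.0329. SCRIB rose by 346 bases (exact permutation p = 0.0173, adjusted 0.0620) and CRB3 by 202 bases (exact permutation p = 0.0238, adjusted 0.0772). Both calls depended on the setting: SCRIB was at an exact permutation p of 0.119 with 150000 peaks, and CRB3 at 0.409 (83.3 bases) with a −log10 q of at least 5, 0.0519 when scaled and 0.0714 against KO2 alone. Against KO2 alone the calls held at DLG1, TJP3, OCLN and SCRIB. With Rescue2 alone they held at DLG1 and TJP1 and were lost at TJP3, OCLN, SCRIB and CRB3. No share of all genes is given for these settings. PARD6B, PARD3 and PATJ differed by 300, 1265 and −246 bases, with exact permutation p-values of 0.117, 0.400 and 0.379. The 4 loci that kept an adjusted p under 0.05 stood against 19.3% of all genes with more and 4.42% with fewer bases on that criterion. The median log2 ratio of rescue to KO bases was 0.0964 over all genes and 0.174 over the 9 loci. Scaled to the total under peaks, 26.3% of all genes had more and 13.5% fewer bases, and 5 of the 9 loci had more and 1, PATJ, fewer.

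Set beside WT, TJP1 was the only one of these loci at which every rescue library lay above every WT library. The difference between rescue and WT was not tested. Its mean was 13248 bases in rescue and 10986 in WT libraries, and all 6 rescue libraries lay above all 3 WT libraries, as they did at 16.2% of all genes. TJP3 had a mean of 2442 bases in rescue and 2614 in WT libraries, and OCLN 4460 and 4381, with overlapping libraries in both. DLG1 had 7672 and 6747, with 3 of 6 rescue libraries above every WT library. SCRIB had 1432 and 1261, with 4 of 6 rescue libraries above every WT library and 1 below. PARD6B had 3779 and 3445, with 3 of 6 above. The rescue mean was also the higher at PARD3 (23462 and 22607) and CRB3 (1680 and 1644), and it was the lower at PATJ (6793 and 7205).

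At OCLN the difference between KO and WT lay in sequence that the reference holds elsewhere. The largest loss of a single region, −398 bases, came from region 14 in intron 5, and the adjoining region 15 contributed −200. Both are named after their values were seen. Region 14 (chr5:69542734-69543248) held 392, 496 and 435 bases in WT libraries, none in KO1, and 82, 0 and 178 in KO2. In Rescue1 it held 0, 155 and 106 bases and in Rescue2 360, 262 and 256, so the rescue clones also differed from each other. Region 15 (chr5:69543253-69543630) averaged 262 bases in WT, 62.3 in KO and 141 in rescue libraries. None of the 31-base words of either region was found at only 1 place in the reference, and both matched a stretch farther along chromosome 5 with 100% identity over their whole length, region 14 at chr5:71084648-71085162. The copy of region 14 averaged 367 ± 9.54 bases over the 3 WT libraries, 65.0 ± 122 over the 6 KO and 200 ± 197 over the 6 rescue libraries (each ± SD). Reads of the pair cannot be told apart. Of the 14 consensus regions at OCLN, 6 had a near-identical copy, meaning at least 90% identity over at least 50% of the region. Without those 6 regions the difference between KO and WT was 19.5 bases (exact permutation p = 0.952) and that between rescue and KO 362 bases (exact permutation p = 0.0390).

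Outside the copied stretch, OCLN regions moved in both directions. OCLN region 13 in intron 4 (chr5:69521183-69521620) held 88, 0 and 0 bases in WT libraries, 326 to 426 in KO and 313 to 411 in rescue libraries, and 97.3% of its words were found once. Region 7 in intron 1 (chr5:69502374-69503139) averaged 500 bases in WT, 298 in KO and 411 in rescue libraries. Region 17 in the downstream flank (chr5:69559908-69560438) was, by contrast, 1 of the 6 regions with a near-identical copy (99.1% identity). Of its words, 25.0% were found once. It lay over the start of GTF2H2C, the neighbouring gene that encodes a subunit of a transcription factor, and averaged 423, 398 and 422 bases.

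**Figure D2:**
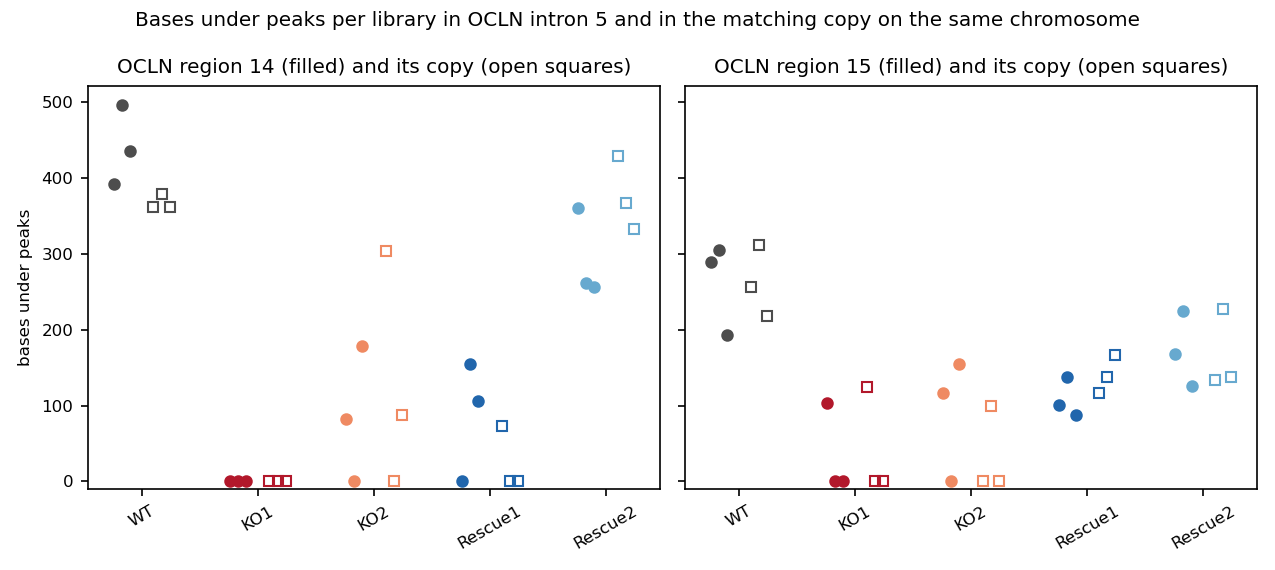
Bases under peaks (y axis) by group (x axis) in OCLN regions 14 and 15 (filled circles, 1 per library) and in their most similar copies on the same chromosome (open squares). Region and copy both held peaks in every WT library, and KO1 held none in region 14 or its copy.

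The difference at TJP3 was spread over many small regions. Of its regions, 11 took bases away between WT and KO, in total −859, and 5 added 191. No region was gained or lost in the sense of being present in all libraries of 1 arm and absent from all of the other. The largest contribution, −124 bases, came from region 7 (chr19:3708660-3708830) in intron 1, whose centre lay 361 bases from the canonical start. It held 143, 132 and 137 bases in WT libraries, 81, 0 and 0 in KO1, none in KO2, 171, 123 and 91 in Rescue1, and 0, 151 and 0 in Rescue2. Region 14 in the same intron (chr19:3725918-3726257) averaged 281 bases in WT, 162 in KO and 266 in rescue libraries. The single peak over the canonical start itself, 180 bases in WT replicate 1, was too isolated to enter the consensus. Region 3 (chr19:3699937-3700709) in the upstream flank covered the start of PIP5K1C, a lipid kinase gene, and averaged 655, 533 and 624 bases, so −122 of the −668 bases lay at the start of a neighbour. Within the gene body alone the differences were −549 bases for KO (exact permutation p = 0.0238) and 432 bases for rescue (exact permutation p = 0.00216). Region 7, the consensus region nearest the start of TJP3, is shown whole, and none of the motifs searched below occurred in it:
TJP3 region 7, chr19:3708660-3708830: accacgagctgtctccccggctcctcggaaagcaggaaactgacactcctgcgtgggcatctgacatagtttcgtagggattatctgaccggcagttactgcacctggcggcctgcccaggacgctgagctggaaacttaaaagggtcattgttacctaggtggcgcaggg

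At TJP1 a single intragenic region carried the largest gain. TJP1 region 34 (chr15:29850294-29851007), 28182 bases upstream of the canonical start within the gene body, held no peak in the 3 WT libraries and a peak in all 12 libraries of the 4 clones. The KO libraries had 614 to 663 bases in it and the rescue libraries 577 to 662, with a median −log10 q of 17.9. It contributed 642 of the 1028 bases between KO and WT, and without it the difference was 387 bases. Of its 31-base words, 40.1% were found at 1 place in the reference and the most frequent stood at 58770 places, so part of the region is high-copy repeat sequence. Region 44 (chr15:29917704-29918120) was likewise absent from WT and present in all 12 clone libraries, with means of 244 bases in KO and 195 in rescue. Region 46 (chr15:29921059-29921605) went the other way, from 437 to 517 bases in WT libraries to 90 to 311 in KO and 283 to 378 in rescue libraries. Region 35 (chr15:29854466-29854591) was lost, with 104, 116 and 126 bases in WT, none in KO, and 85, 91 and 0 in Rescue1.

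The rise of TJP1 between KO and rescue did not come from region 34, which contributed −17.8 bases. Region 47 (chr15:29924784-29926117) contributed most, with 661 to 837 bases in WT libraries, 509 to 832 in KO and 826 to 1156 in rescue libraries. TJP1 region 39 (chr15:29878125-29878903) held 0, 0 and 114 bases in WT, 152 to 385 in KO and 322 to 663 in rescue libraries, and it added 220 bases between WT and KO and 222 between KO and rescue. Region 46, which had contributed −317 bases between WT and KO, added 193 between KO and rescue. Both WT and KO1 lacked region 54 (chr15:29946254-29946597), which held 289, 138 and 266 bases in KO2 and 136 to 338 in the rescue libraries, the clones that the list names tie to KO2. Region 38 (chr15:29859806-29860635) averaged 568, 478 and 626 bases. Region 58 (chr15:29968258-29969198), over the start of another transcript at the far end of the gene, averaged 789 bases in WT, 558 in KO and 490 in rescue libraries and so moved against the locus. The only region gained in rescue was region 14 (chr15:29753571-29753785) in intron 8, which was absent from all 6 KO libraries, held 90 to 213 bases in the 6 rescue libraries and 135 in WT replicate 3. The stretches of TJP1 that carried the largest contribution in rescue and the gain in rescue are shown on the plus strand of hg38. Capitals mark motif matches described below:
TJP1 region 47, chr15:29925279-29925578: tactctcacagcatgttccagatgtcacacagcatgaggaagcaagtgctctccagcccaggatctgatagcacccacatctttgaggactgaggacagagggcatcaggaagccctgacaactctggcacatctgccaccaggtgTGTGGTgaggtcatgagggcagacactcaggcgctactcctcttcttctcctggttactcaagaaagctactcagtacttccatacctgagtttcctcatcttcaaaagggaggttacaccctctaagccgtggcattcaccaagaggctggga
TJP1 region 14, chr15:29753571-29753785: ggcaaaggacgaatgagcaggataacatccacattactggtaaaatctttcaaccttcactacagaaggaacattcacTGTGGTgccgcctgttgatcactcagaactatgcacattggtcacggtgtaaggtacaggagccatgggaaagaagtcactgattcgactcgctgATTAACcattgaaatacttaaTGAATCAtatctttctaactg

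At DLG1 the largest single change lay in a tandem repeat past the end of the gene. Region 4 (chr3:197034318-197034992) held 395, 139 and 0 bases in WT libraries, 0 to 113 in KO and 269 to 501 in rescue libraries. It contributed 329 of the 1736 bases between KO and rescue. Region 2 (chr3:197033712-197033953), the only region of the locus gained in rescue, held no peak in WT or KO libraries and 89 to 219 bases in the 6 rescue libraries. Both lay in the downstream flank, and the nearest canonical start was that of MELTF, the melanotransferrin gene, 4015 bases from the centre of region 2. Regions 1 to 4 aligned to each other within chr3:197032452-197035089, a stretch of 2638 bases that matched itself best at a shift of 60 bases (82.7% identity). Of the 31-base words of region 4, 16.3% were found at 1 place in the reference, and of those of region 2, 13.2%. The stretch averaged 178 ± 200 bases over the 3 WT libraries, 53.2 ± 58.6 over the 6 KO and 606 ± 182 over the 6 rescue libraries (each ± SD). With the 5 DLG1 regions that had a near-identical copy left out, the locus still rose between KO and rescue, by 1181 bases (exact permutation p = 0.00433). The repeat unit can be read in the sequences of both regions, on the plus strand of hg38, in capitals where a motif matched. Region 80, lost in KO and 1953 bases upstream of the canonical start, is shown for contrast:
DLG1 region 4, chr3:197034658-197034957: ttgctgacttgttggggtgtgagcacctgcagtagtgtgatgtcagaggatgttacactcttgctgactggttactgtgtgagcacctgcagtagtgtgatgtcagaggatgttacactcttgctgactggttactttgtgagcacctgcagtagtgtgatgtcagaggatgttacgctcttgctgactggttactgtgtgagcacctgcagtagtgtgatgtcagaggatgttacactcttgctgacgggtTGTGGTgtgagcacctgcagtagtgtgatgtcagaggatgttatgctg
DLG1 region 2, chr3:197033712-197033953: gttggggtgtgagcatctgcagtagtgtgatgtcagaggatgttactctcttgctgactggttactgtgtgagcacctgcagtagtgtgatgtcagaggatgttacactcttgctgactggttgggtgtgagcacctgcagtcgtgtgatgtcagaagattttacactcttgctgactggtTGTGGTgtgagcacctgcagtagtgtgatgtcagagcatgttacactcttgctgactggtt
DLG1 region 80, chr3:197300478-197300652: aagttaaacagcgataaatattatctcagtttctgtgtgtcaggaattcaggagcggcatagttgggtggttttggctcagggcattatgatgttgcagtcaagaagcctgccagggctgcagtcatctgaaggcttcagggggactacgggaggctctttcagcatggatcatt

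The rise at DLG1 was also spread over many short regions, and 49 of its 60 consensus regions lay in introns. In all, 58 regions added 2382 bases between KO and rescue and 20 took bases away, summing to −646. These counts include regions 1 to 4 of the repeat. Of the 60 DLG1 consensus regions, 12 were seen in rescue libraries alone, region 2 of the repeat among them. Such regions made up 7.16% of those at the 9 loci and 5.81% of all consensus regions. Region 36 in intron 5 (chr3:197189527-197189824) held 141, 179 and 128 bases in WT libraries, 104 bases in 1 KO2 library and none in the other KO libraries, and 112 to 202 in rescue libraries. Region 67 in intron 4 (chr3:197265749-197266024) was seen in 5 of 6 rescue libraries alone, with 115 to 185 bases, and 20.7% of its words were found once. Region 13 in intron 16 (chr3:197083489-197083964) was present throughout and averaged 261 bases in WT, 260 in KO and 402 in rescue libraries. The 3 regions lost in KO were region 80 (168, 152 and 126 bases in WT), region 12 in intron 17 (chr3:197080322-197080490) and region 62 in intron 4 (chr3:197253665-197253806). Rescue1 replicate 1 held 73 bases in region 80 and Rescue1 replicate 2 held 78 in region 12, and no rescue library held a peak in region 62.

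**Figure D3:**
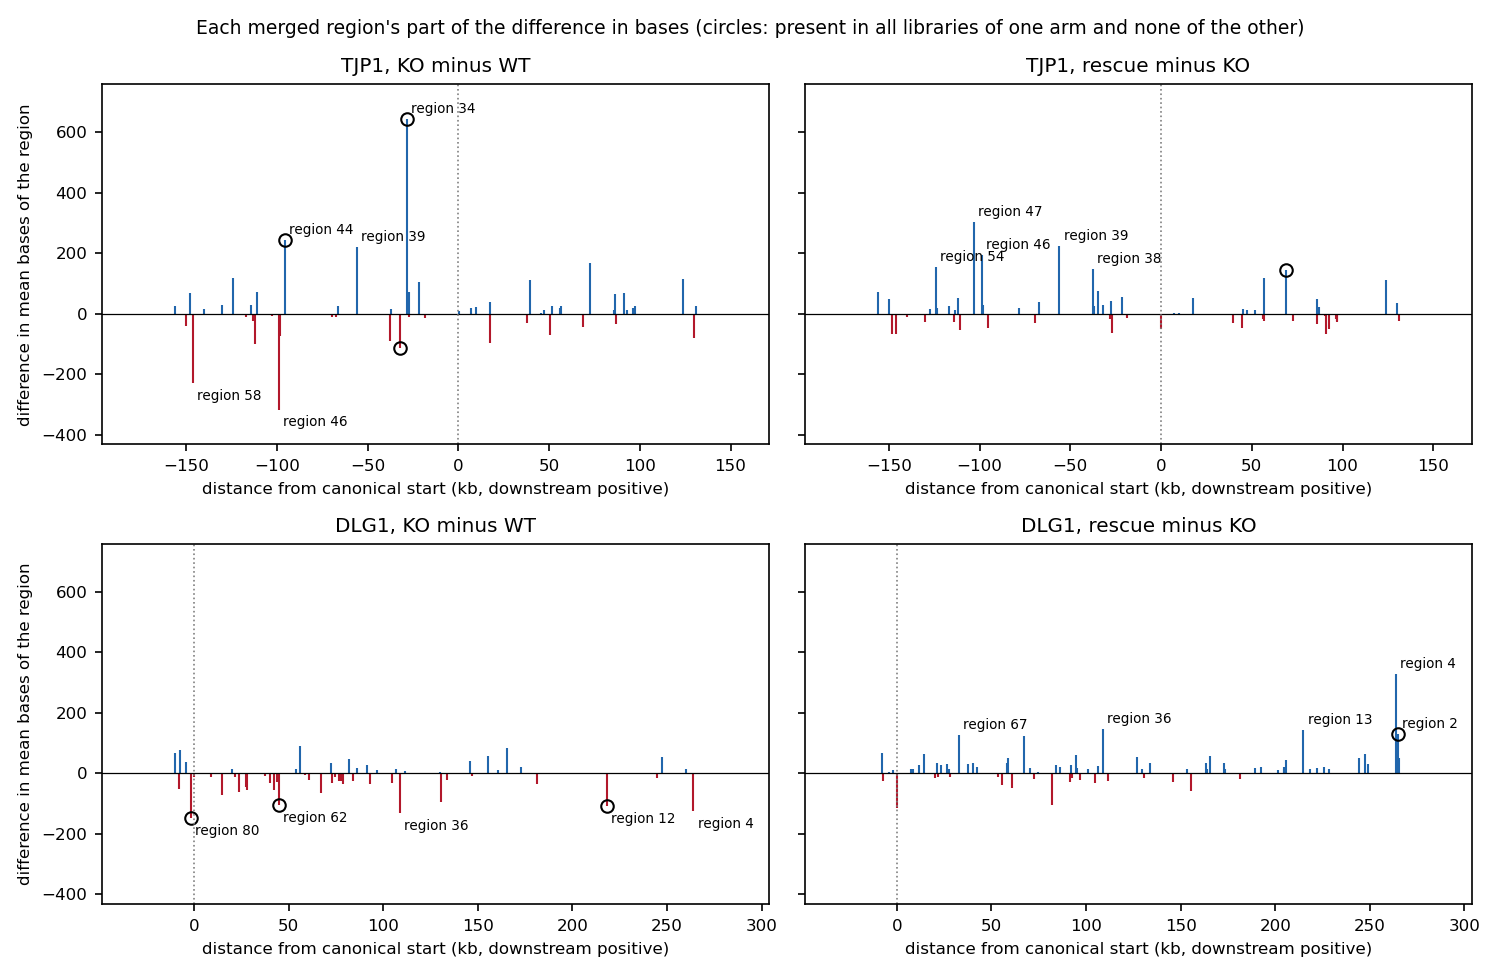
Difference in mean bases under peaks of each merged region (y axis) against the distance of its centre from the canonical start (x axis, kb), for TJP1 and DLG1, in KO minus WT and in rescue minus KO. Circles mark regions present in all libraries of 1 arm and in none of the other, and the 5 largest are numbered. The tallest line, at TJP1 region 34, stands for 642 bases.

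Short letter motifs of factors known in epithelia were searched on both strands of the TJP1, DLG1 and TJP3 stretches printed above, and for each the share of windows of the same length, centred on every consensus region, was taken. They were AP-1 (TGANTCA), TEAD (GGAATG), RUNX (TGTGGT), the POU octamer (ATGCAAAT), FOX (TGTTTAC), NF-kB (GGGNNTTCC), ETS (CCGGAAG), GRHL (AACCGGTT), HNF1 (GTTAAT) and SP/KLF (GGGCGG). Region 47 of TJP1 and region 4 of DLG1, the largest contributions in rescue, each held 1 RUNX match and no other in 300 bases, and 26.5% of all such windows held RUNX letters. In their whole lengths, region 4 of DLG1 held no further match, while region 47 of TJP1 held 2 AP-1, 3 TEAD and 2 RUNX matches over 1334 bases. Region 2 of DLG1 held 1 RUNX match, a letter string found in 23.3% of windows of its length. Region 14 of TJP1 held 1 match each of AP-1, RUNX and HNF1, found in 28.3%, 21.7% and 8.01% of windows. No match overlapped another, and the stretches of DLG1 region 80 and TJP3 region 7 held none.

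PARD3, the longest of the 9 genes (chromosome 10, 34109560 to 34815325), had 150 consensus regions, of which 6 were gained (4%) and 7 lost (4.67%) between WT and KO. The shares over all consensus regions were 4.79% and 2.48%. PARD3 region 39 in intron 19 (chr10:34319275-34319863) held none in WT, 328 to 516 bases in KO and 299 to 412 in rescue libraries. PARD3 region 2 in the UTR of exon 25 (chr10:34110334-34110707) held none in WT, 266 to 368 bases in KO, 156 to 199 in 5 rescue libraries and none in Rescue2 replicate 3. PARD3 region 21 in intron 22 (chr10:34226383-34226768) was lost, with 207, 290 and 243 bases in WT, and was back in 4 of 6 rescue libraries. Region 63 in intron 4 (chr10:34464024-34464330) averaged 235 bases in WT and was back in 2 rescue libraries. Of the 7 lost regions, 4 were seen in no library but the 3 of WT. Over the 9 loci this held for 5 of 13 lost regions, these 4 included. The share over all regions lost in KO is not given. Over all merged regions of the PARD3 window, called or not, increases and decreases nearly cancelled. In total, 81 regions added 5285 bases and 86 took away bases summing to −5696.

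PATJ (chromosome 1, 61742477 to 62178675) gained 2 regions and lost 2 of 34 (5.88% each) between WT and KO, all in introns. The gained regions 39 (chr1:62151954-62152320) and 11 (chr1:61839720-61840014) were both kept in all 6 rescue libraries, with 172 to 326 and 118 to 266 bases. The lost region 18 (chr1:61893632-61893763) was present again in all 3 Rescue2 libraries and in no Rescue1 library, while the lost region 5 (chr1:61754230-61754479) was present again in 1 library of Rescue2. Region 25 in intron 27 (chr1:61980678-61980839) was the only region of the 9 loci lost between KO and rescue, with 110 to 161 bases in WT libraries, 76 to 138 in KO and none in rescue. Region 10 in intron 17 (chr1:61837598-61837996), named after its values were seen, contributed most in both comparisons, with means of 25.7 in WT, 314 in KO and 82.7 in rescue libraries.

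CRB3 as a locus did not pass the test between KO and WT. Its canonical start region (chr19:6464201-6464814) held 441, 235 and 301 bases in WT libraries, 119 to 196 in KO and 184 to 388 in rescue libraries. Every KO library lay below every WT library there, as in 42 of the 349 consensus regions of the 9 loci (12%) and 8.01% of all consensus regions, and it was the only canonical start among the 42. The region also lies within SLC25A23, a mitochondrial carrier gene that overlaps CRB3 on the other strand, so a signal there cannot be given to either gene. Region 2 of the window (chr19:6459516-6459982), over a start of SLC25A23, averaged 264 bases in WT and 321 in KO libraries. The 5' end of SLC25A23 as annotated, at 6465203, lay in region 5 (chr19:6465133-6465333). Region 5 averaged 142 bases in WT, 111 in KO and 169 in rescue libraries. Within the CRB3 gene body alone the differences were −210 bases for KO (exact permutation p = 0.0238) and 162 for rescue (exact permutation p = 0.00216).

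SCRIB (chromosome 8, 143790920 to 143815773) had 1221, 1307 and 1254 bases in WT libraries, 910 to 1380 in KO and 1129 to 1826 in rescue libraries. Its start region averaged 1205, 1057 and 1178 bases. A pair of intronic regions, 4 and 5, were seen in rescue libraries alone, region 4 in 5 of 6 with a mean of 113 bases and region 5 in 4 of 6 with a mean of 67. PARD6B (chromosome 20, 50731580 to 50756795) had 3258 to 3727 bases in WT, 3090 to 3897 in KO and 3351 to 4212 in rescue libraries. Of its 15 consensus regions 9 were present in all libraries and none was gained or lost.

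Across the 9 loci, 10 regions were gained and 13 lost between WT and KO, which is 2.87% and 3.72% of the 349 consensus regions, against 4.79% gained and 2.48% lost over all consensus regions. Between KO and rescue, 2 were gained and 1 lost (0.573% and 0.287%), against 0.910% and 1.24% overall. No region was lost in KO and then gained in rescue, or gained in KO and then lost in rescue. With only 2 regions gained and 1 lost between KO and rescue, few could have been counted. The share of such regions over all consensus regions is not given. Of the 10 regions gained in KO, 8 were present in all 12 clone libraries, as were 44.7% of all regions gained in KO. In 9 regions (2.58%) every rescue library held more bases than every KO library, against 4.03% over all consensus regions. By Fisher's exact test per region, 38 regions at the loci (10.9%) had an unadjusted p under 0.05 for KO and WT, against 10.8% of all consensus regions, and 8 (2.29%) for KO and rescue, against 5.29%. No region of the genome passed adjustment over 295008 regions, the smallest adjusted p being 0.164 and 0.101.

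**Figure D4:**
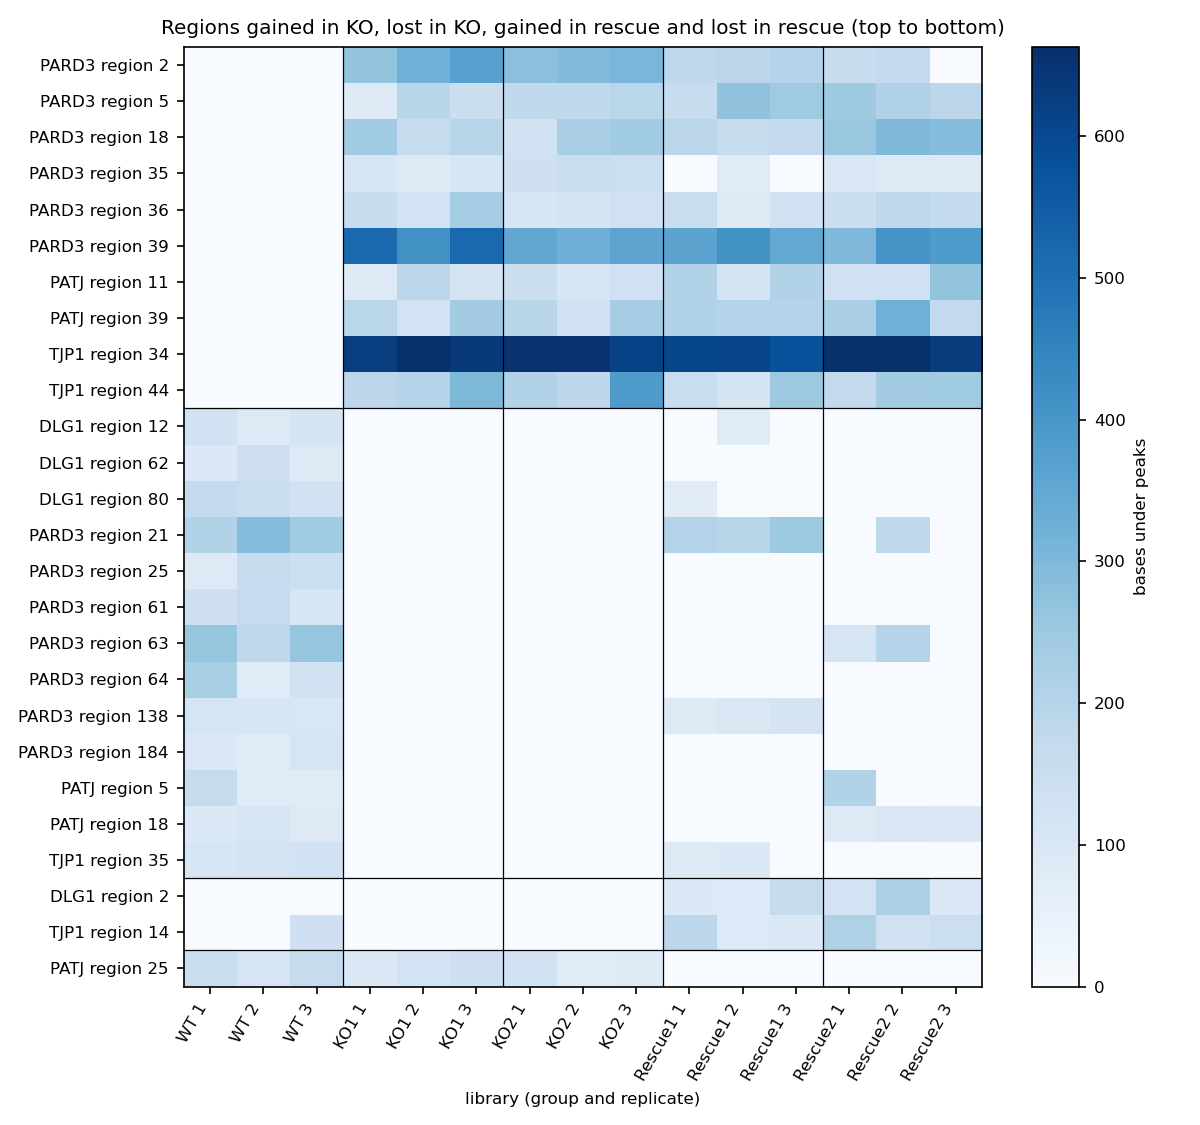
Bases under peaks (colour) in each library (columns, ordered by group) for the 26 regions gained or lost in either comparison (rows). From top to bottom the blocks hold 10 regions gained in KO, 13 lost in KO, 2 gained in rescue and 1 lost in rescue. The gained block stays filled in most rescue libraries, and the lost block stays mostly empty.

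The 36 other genes of junction and polarity complexes on the list were called about as often as all genes. Between WT and KO, 5 had more (13.9%) and 7 fewer bases (19.4%) at an exact permutation p under 0.05, against 15.9% and 15.3% of all genes. Between KO and rescue 11 had more (30.6%) and 2 fewer (5.56%), against 31.4% and 7.32%. Their median log2 ratios were 0.00944 and 0.0850, against −0.00872 and 0.0964 over all genes. Several genes tied at the smallest p, and those with the largest differences are named. DLG2, a relative of DLG1 best known from synapses, rose from 9146 ± 706 bases (SD over 3 WT libraries) to 26622 ± 2315 (SD over 6 KO libraries) and stood at 12797 ± 2205 in rescue libraries. MAGI2, a junction scaffold, had 7911 ± 727 bases in WT and 17824 ± 1727 in KO libraries. It stayed at 17667 ± 2582 in rescue libraries (exact permutation p = 0.896 against KO). JAM3, a junctional adhesion molecule, had 1990 ± 70.2 bases in WT libraries, none in any KO library and 612 ± 161 in rescue libraries. LLGL2, which opposes the Par complex, had 5149 ± 239 bases in WT and 3771 ± 289 in KO libraries. PARD6G, a relative of PARD6B, had 1680 ± 179 bases in KO and 3354 ± 612 in rescue libraries, and PRKCZ, an atypical protein kinase C, had 4430 ± 342 and 6012 ± 462. DLG5 had 7347 ± 303 bases in KO and 8167 ± 274 in rescue libraries. Apart from MAGI2 between KO and rescue, the exact permutation p of these differences was the smallest possible. That exact permutation p was 0.0238 with SETD2 loss (adjusted 0.0998) and 0.00216 with its return (adjusted 0.0169).

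Many genes followed DLG1 and TJP1 across the 15 libraries. The genes whose bases were most like those of DLG1 were DCAF4L1, SMIM1 and LRRC47, with Pearson r of 0.937, 0.935 and 0.931 over 15 libraries. Those most like TJP1 were SLC13A4, VPS53 and PIPOX, with r of 0.972, 0.964 and 0.963. In all, 1223 genes had an r above 0.8 with DLG1 and 1855 with TJP1, and the 15 points share the length of their peak lists.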

How the data were processed

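ATAC-seq libraries of RPTEC cells (WT, 2 knockout and 2 rescue clones, 3 libraries of each) were used as peak lists. Per the labels and the study's methods, the authors aligned reads to hg38 with BWA (the processing notes give 0.7.17) and called peaks per library with MACS2 2.2.7.1. The lists deposited by the authors give intervals with −log10 p-values and −log10 q-values, with a q of 0.05 as the limit, and no counts. A place without a peak is below that limit, not closed. All 99 contigs of the lists were found in the hg38 reference, with 0 peaks past a contig end. Gene models were GENCODE release 44.

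Bases under peaks were summed per library within the gene plus 10 kb on each side. Arms were compared by an exact two-sided permutation test of the library labels, with Benjamini-Hochberg adjustment over 19429 genes, and scripts were tested on simulated data. An unadjusted p under 0.05 was the call. A region was gained or lost when all libraries of 1 arm and none of the other held a peak on it. limma 3.58.1 on log2(bases + 100), computed here from the deposited intervals, was an alternative. Copies of regions were found with minimap2 2.31, and 31-base words were counted over chromosomes 1 to 22, X and Y. Sequences come from the hg38 reference, whole up to 300 bases, otherwise the 300 bases whose coverage differed most between the arms, and 1 sequence is not reported here.

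Named items were the 9 loci, their start regions, regions gained or lost (at PARD3 those with most bases), the largest contributions at DLG1 and TJP1, up to 4 of 36 further pathway genes per comparison by smallest p (ties by the larger difference), and the 3 most correlated genes. Other regions named, and motif searches beyond the largest contribution in rescue at DLG1 and TJP1, were chosen after values were seen. Genes and lists were chosen with earlier results of these data known. No pair of libraries of different groups was as alike as any pair within a group (Jaccard index of bases at most 0.755 against at least 0.766).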

Additional observations from a re-analysis of the deposited data

How the results depend on the processing

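The loci with fewer bases in KO numbered 2. They became 5 with the 150000 strongest peaks per library (20.6% of all genes), 6 with bases scaled to the total under peaks (36.4%), and 1 with near-identical copies left out, an alternative chosen after seeing the data. They became 0 with KO1 alone or KO2 alone, where 3 against 3 libraries cannot go below 0.1, and 0 to 2 with 1 library left out, since without any WT library p cannot go below 0.0714. The loci with more bases in KO became 1 (PARD6B) in the gene body alone and stayed at 0 with any library left out. The 6 loci with more bases in rescue became 3 with Rescue2 alone, namely DLG1, TJP1 and PARD6B, of which PARD6B was not among the 6. They became 6 to 7 with 1 library left out (PARD6B added without KO2 replicate 3). The 0 with fewer became 1 (PATJ) when scaled, and stayed 0 with any library left out. No share of all genes is given for Rescue2 alone or for 1 library left out. Regions lost in KO (13) became 21 when a peak had to cover at least 0.5 of a region (3.12% of all consensus regions), 23 with KO1 alone (4.80%) and 14 to 17 with 1 library left out, and regions gained (10) became 10 to 14. Regions gained in rescue (2) became 1 with 150000 peaks, in the gene body alone or without copies, 11 with Rescue1 alone (1.80%), and 2 to 3 with 1 library left out. Regions lost in rescue (1) became 0 at a −log10 q of at least 5, 3 with 150000 peaks, 2 with Rescue1 alone, and 1 to 3 with 1 library left out, 3 being the value without KO2 replicate 2.

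Replicate numbers did not pair the libraries. Correlations ran from −0.163 to 0.0490 for same-numbered libraries and from −0.0897 to 0.167 for differently numbered libraries of different groups. Of 15 libraries, 4 were most like one of their own number. Permuting within a replicate block gave 0 loci with fewer bases in KO, where p cannot go below 0.0741, and changed no other count.

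Directions reversed only for OCLN in KO without copies (19.5 bases), for PARD6B in KO (−243 scaled, −85.3 with KO1 alone, −58.5 to 176 with 1 library left out, reversed without WT replicate 2, WT replicate 3 or KO2 replicate 3) and in rescue (−5.83 with 150000 peaks, −14.0 in the gene body), for PATJ in KO without WT replicate 1 (range −510 to 153 with 1 library left out) and in rescue with Rescue2 alone (36.5), and for PARD3 in KO without WT replicate 1 or KO2 replicate 2 (range −1388 to 1228). None of these passed the test. The causes of these shifts were not tested.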
